A study of Mus musculus with 2 samples.

Results

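The SR proteins are splicing factors that carry RNA recognition motifs and a tail rich in arginine and serine. The 10 genes described here, Srsf1, Srsf2, Srsf3, Srsf4, Srsf5, Srsf6, Srsf7, Srsf9, Srsf10 and Srsf11, were taken by their exact symbols from a table of 44787 gene rows, 22669 of them mRNA. RNA of mouse hindlimb muscle had been sequenced in 2 libraries. The control library came from mice with the genotype SRSF2 flox/flox, in which Srsf2 can be deleted by a recombinase, and the knockout library from SRSF2 flox/flox MyoD-Cre mice, in which Cre recombinase is expressed in the myogenic lineage. Both genotypes carry the floxed alleles, and MyoD-Cre is present in the knockout library alone, so effects of the Cre allele and of the deletion cannot be told apart. The age of the mice, the number of animals in a library and the floxed part of the gene are not given in the labels. Each group holds 1 library, so no difference has a replicate check and no p-value is given. "Higher" and "lower" describe these 2 libraries, and intervals are 95% intervals of counting error alone.

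SR proteins bind exonic enhancers, recruit the U1 particle and the U2AF factor to nearby splice sites, and so help decide which exons are kept. Kinases of the SRPK and CLK families phosphorylate the arginine- and serine-rich tail, which controls entry into the nucleus and release from nuclear speckles. Several SR genes limit their own output by including a poison exon, which exposes the transcript to nonsense-mediated decay. In muscle, regulated splicing shapes the isoforms of sarcomere and calcium-handling proteins.

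The libraries held 69422626 and 76702198 reads, and the mapped shares were 81.4% (Wilson interval 81.42 to 81.44) and 80.0% (79.98 to 80.00). A gene counted as measured when either library reached 1 FPKM. The median of the 13175 measured genes was 0.18 higher in the knockout library on the log2(FPKM + 1) scale. That is a ratio of 1.13 between values of FPKM + 1. For FPKM itself, over genes at 1 FPKM or more in both libraries, the median ratio was 1.15. FPKM counts fragments relative to gene length and library size. The knockout library also held signs of other tissues: all 12 keratinocyte markers were higher by at least 2-fold, with a summed level of 2101 FPKM against 12.7 FPKM, from Krt1, a keratin of differentiated epidermis, at 669 against 2.48 FPKM to Sfn at 11.0 against 1.84 FPKM. None of these 12 was at 0 in either library, but 4 reached 1 FPKM in the control library, against 12 in the knockout library. The others counted as measured through the knockout library alone. Over all measured genes 2.68% were higher by at least 2-fold. The part of this tissue mix in the levels of the SR genes was not tested.

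Srsf2 itself, known also as SC35, was at 31.1 FPKM in the control and 19.4 FPKM in the knockout library. It is a nuclear SR protein that binds exons and has also been found with the 7SK particle, which controls the release of paused polymerase. The ratio of knockout to control was 0.624 (0.578 to 0.674), and relative to the median gene the difference was -0.84 on the log2(FPKM + 1) scale. Of the 13175 measured genes, 308 (2.34%) had a difference as low or lower. The library labelled knockout thus kept 62.4% of the control level of the targeted gene. In bulk RNA fewer cells of a type and less RNA per cell cannot be told apart.

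Muscle fibre genes were lower in the same library. Of 8 myofibre markers 7 were below 0, with a median difference of -0.66, from Myh8, the perinatal myosin heavy chain, at 6684 against 15047 FPKM to Myh3, the embryonic one, at 1785 against 1535 FPKM. Their summed level was 20191 FPKM in the knockout library against 35532 FPKM, a ratio of 0.568, beside 0.624 for Srsf2. Of these 8, 1 was lower by 2-fold and none was at 0 in either library. Over all measured genes 27.0% were below 0 and 0.744% were lower by 2-fold. How far the lower Srsf2 value moves with the amount of muscle in the sample was not tested. The 6 satellite cell and myoblast markers summed to 101 against 107 FPKM, and ranged from Myod1, a myogenic determination factor, at 3.58 against 10.6 FPKM, to Cdh15, M-cadherin, at 21.6 against 13.7 FPKM.

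Of the 3 genes within 20 kb of Srsf2 on chromosome 11, 2 were lower in the knockout library too. Srsf2 lies at 116849904 to 116853106 on the minus strand (GRCm38), with Mfsd11 starting 909 bases away on the plus strand, Mettl23 ending 168 bases away on the plus strand, and Jmjd6 at 6568 bases on the minus strand. Mfsd11, a gene of the major facilitator transporter superfamily, was at 6.87 FPKM in the control and 3.22 FPKM in the knockout library, a ratio of 0.468 (0.407 to 0.539). Mettl23, a methyltransferase-like gene, was at 3.68 and 2.37 FPKM, a ratio of 0.644 (0.494 to 0.831). Jmjd6, which encodes a Jumonji-domain protein that binds and modifies splicing factors, was at 19.0 and 18.9 FPKM, a ratio of 0.997 (0.909 to 1.09). So both plus-strand neighbours had lower values together with Srsf2 and the next minus-strand gene did not. The difference of Mfsd11 was -0.90, short of 2-fold as deposited, and -1.07 after median-of-ratios scaling, which passes the rule; this scaling was applied to the neighbours after the data were seen. In GENCODE M21 transcripts of Mfsd11 and Mettl23 overlap Srsf2 on the opposite strand. Whether strand was used in counting is not given in the sources, and without it the reads of these 3 genes cannot be told apart where they overlap.

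**Figure D1:**
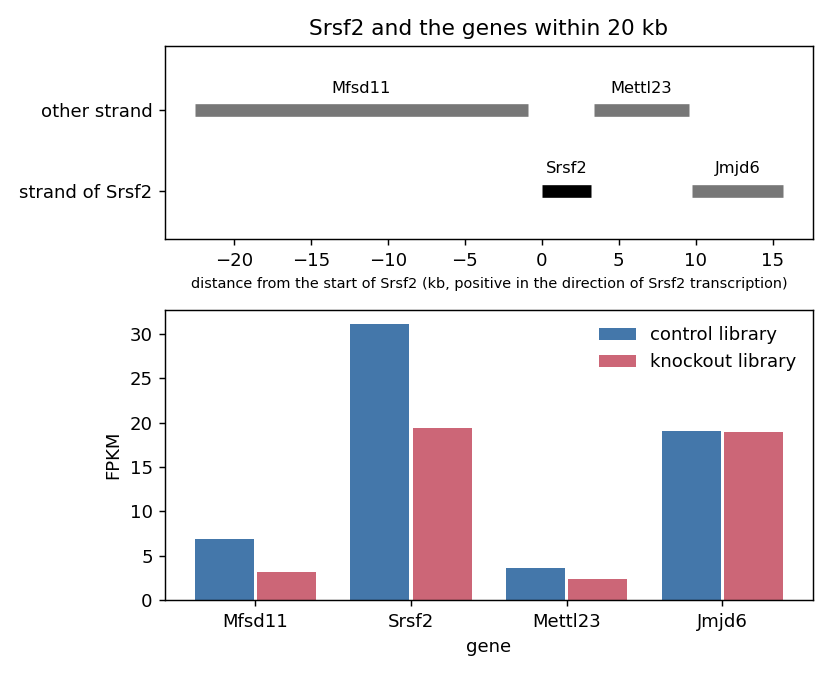
Upper panel: positions of Srsf2 and the genes within 20 kb, in kb from the start of Srsf2, by strand. Lower panel: FPKM of each gene in the control and the knockout library (1 library each, no error bars); Mfsd11, Srsf2 and Mettl23 have lower bars in the knockout library, and Jmjd6 is at 19.0 and 18.9 FPKM.

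In the control library the 10 genes covered a 13.8-fold range of levels, from Srsf9 at 10.8 FPKM to Srsf5 at 150 FPKM. Srsf5 was followed by Srsf11, Srsf6, Srsf4, Srsf3, Srsf2, Srsf1, Srsf10, Srsf7 and Srsf9. Among these neighbours in order, Srsf4 and Srsf3 (51.7 and 49.9 FPKM), Srsf2 and Srsf1 (31.1 and 30.5 FPKM), and Srsf10 and Srsf7 (24.4 and 23.4 FPKM) had counting intervals that overlapped. In the knockout library Srsf5 and Srsf11 again led and Srsf9 was again last, while Srsf2 stood at rank 9 in place of rank 6. There Srsf4 and Srsf6 (68.8 and 67.7 FPKM) and Srsf7 and Srsf1 (28.5 and 27.4 FPKM) had overlapping intervals. All 10 genes lay in the upper part of the measured genes, from the 71.7th percentile for Srsf9 to the 98.1st for Srsf5 in the control library.

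**Figure D2:**
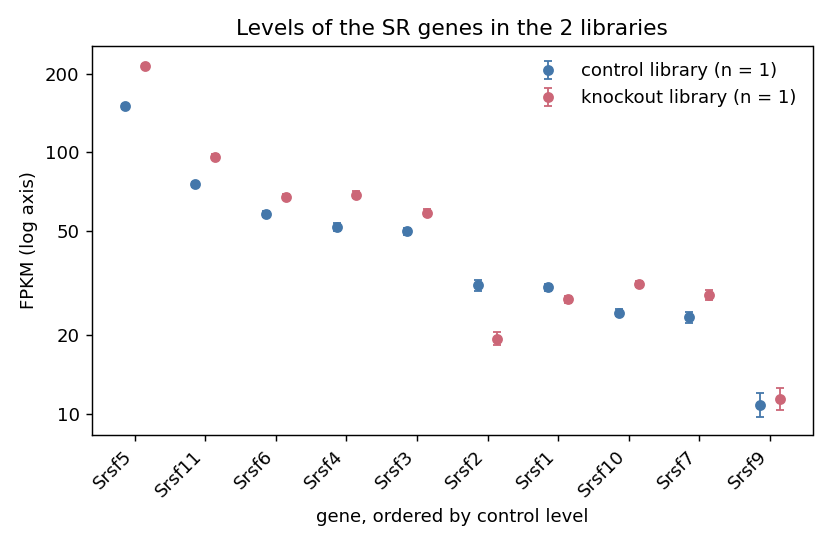
FPKM of each SR gene on a log axis in the control and the knockout library (1 library each), with 95% Poisson counting intervals, ordered by control level. Srsf2 is at 31.1 FPKM in the control and 19.4 FPKM in the knockout library, and Srsf5 is the highest gene in both.

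None of the 10 genes passed the 2-fold rule in either direction, where 2.68% of all measured genes were higher and 0.744% lower. With a 1.5-fold rule 1 gene, Srsf2, was lower and 0 were higher, against 2.91% and 9.15% of measured genes. As deposited, 8 of the 10 were above 0 and 2 below, against 73.0% and 27.0% of measured genes, so the share above 0 was near the background. The median difference of the 10 was 0.25, beside 0.18 for all measured genes, and 7 of the 10 lay above the median gene. Among genes at 5 FPKM or more the median gene was at 0.22, and 6 of the 10 lay above it.

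The SR proteins with a pair of RNA recognition motifs are Srsf1, Srsf4, Srsf5, Srsf6 and Srsf9, and they spanned most of the range of ratios. Srsf5 was at 150 FPKM in the control and 214 FPKM in the knockout library, a ratio of 1.43 (1.39 to 1.48) and the highest of the 10. 12.5% of measured genes had a difference at least as high as that of Srsf5. Srsf4, the member with the longest arginine- and serine-rich tail, was at 51.7 and 68.8 FPKM, a ratio of 1.33 (1.27 to 1.39). Both genes stood above the median gene by more than their counting intervals. Srsf6 was at 58.0 and 67.7 FPKM, a ratio of 1.17 (1.13 to 1.21), close to that of the median gene. Srsf9 was at 10.8 and 11.4 FPKM, a ratio of 1.06 (0.913 to 1.22), and was the 1 member whose interval held a ratio of 1; its sign turned negative under all 3 scalings. Srsf1, the founding member of the family, which shuttles between nucleus and cytoplasm, was at 30.5 and 27.4 FPKM, a ratio of 0.899 (0.862 to 0.938). Srsf1 was the 1 other member with a lower value in the knockout library, and its difference was -0.15 as deposited and -0.35 after median-of-ratios scaling.

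Beside Srsf2, the members with a single RNA recognition motif all had higher values in the knockout library, as had 73.0% of all measured genes. Srsf3, the smallest SR protein and an adaptor for mRNA export, was at 49.9 FPKM in the control and 58.7 FPKM in the knockout library, a ratio of 1.18 (1.12 to 1.23). Srsf7, a close relative with a zinc knuckle, was at 23.4 and 28.5 FPKM, a ratio of 1.22 (1.14 to 1.30). Srsf10, which represses splicing when it is dephosphorylated, was at 24.4 and 31.4 FPKM, a ratio of 1.28 (1.23 to 1.34). Srsf11, a more divergent SR protein, was at 75.6 and 96.3 FPKM, a ratio of 1.27 (1.23 to 1.32). The 4 ratios lay close together, and after median-of-ratios scaling their differences were between 0.03 for Srsf3 and 0.15 for Srsf10.

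**Figure D3:**
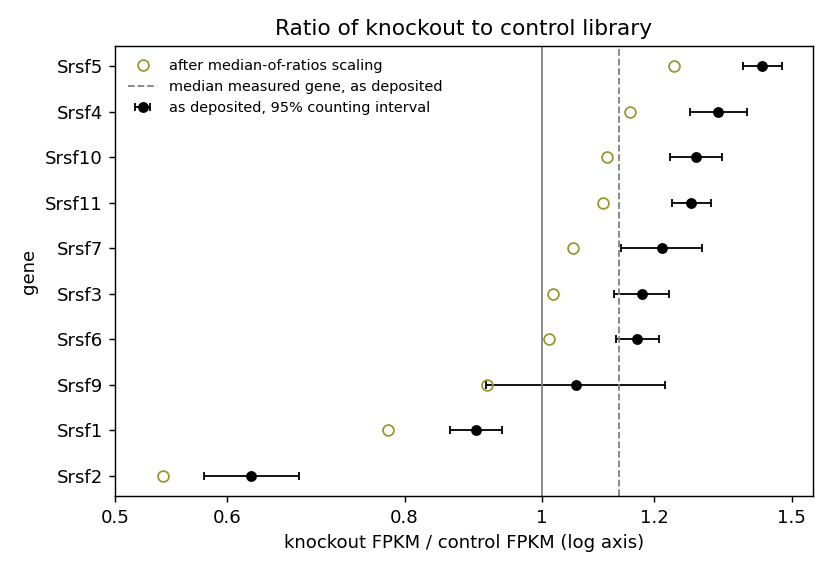
Ratio of knockout to control FPKM for each SR gene on a log axis, with 95% counting intervals (filled) and after median-of-ratios scaling (open). The solid line marks 1. The dashed line marks the median measured gene at 1.13, a ratio of FPKM + 1, while the points are ratios of FPKM. Srsf2 at 0.624 and Srsf1 at 0.899 lie left of 1, and the open points lie left of the filled ones for all genes.

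Ratios between members within a library do not depend on how the libraries are scaled. The level of Srsf2 relative to Srsf1 was 1.02 in the control and 0.708 in the knockout library, a change by a factor of 0.694 (0.636 to 0.757). Relative to Srsf5 it was 0.208 and 0.0905, a factor of 0.436 (0.401 to 0.473). The factors for the other 7 members lay between these values, and no interval of the 9 held 1. Srsf2 was therefore lower in the knockout library relative to each of the other members, beyond counting error.

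The summed level of the 10 genes was 505 FPKM in the control and 624 FPKM in the knockout library, a ratio of 1.23. Srsf5 alone accounted for 64.5 of the 119 FPKM between these sums, and without it the sums were 355 and 410 FPKM, a ratio of 1.15. The median ratio of FPKM, over genes at 1 FPKM or more in both libraries, was also 1.15. Srsf5 made up 29.7% of the sum in the control and 34.3% in the knockout library, while Srsf2 made up 6.16% and 3.11%. Srsf1 went from 6.03% to 4.39%. The remaining members kept shares within 1 percentage point of each other in the 2 libraries.

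**Figure D4:**
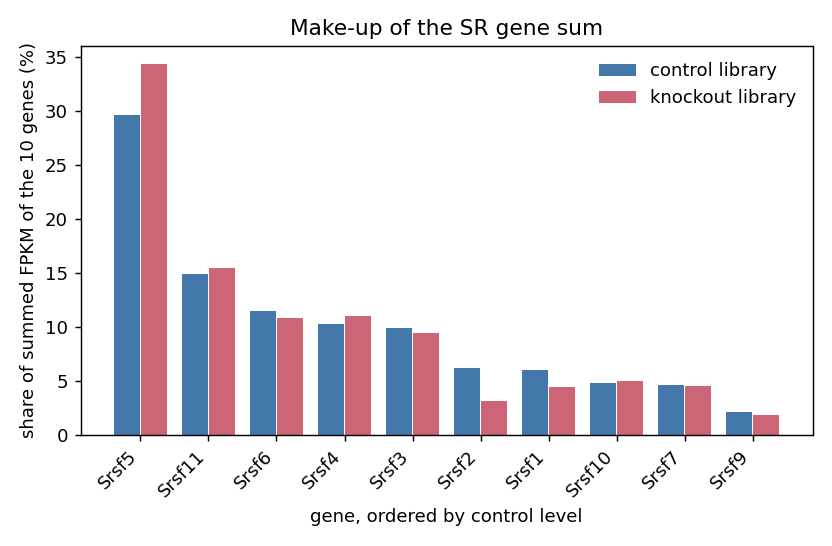
Share of each SR gene in the summed FPKM of the 10 genes, in percent, in the control and the knockout library (1 library each, no error bars). Srsf5 holds 29.7% and 34.3%, and Srsf2 6.16% and 3.11%.

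The promoter windows of the 10 genes all held more G and C than the median window. The 250 bases before a start of each gene (RefSeq, GRCm38.p6, all 10 matched) held 56.8 to 78.0% G and C, beside a median of 52.4% over 32851 promoter windows of that length, and 17 to 37 CpG dinucleotides, beside a median of 6. Windows of the lowest pair of ratios, Srsf2 and Srsf1, and of the highest pair, Srsf5 and Srsf4, are shown 5′ to 3′ in the direction of the gene, as the members at either end of the family. Capitals mark matches on either strand to the motifs spelled out after the sequences, the E-box excepted.
Srsf2, chr11:116853095-116853344, minus strand: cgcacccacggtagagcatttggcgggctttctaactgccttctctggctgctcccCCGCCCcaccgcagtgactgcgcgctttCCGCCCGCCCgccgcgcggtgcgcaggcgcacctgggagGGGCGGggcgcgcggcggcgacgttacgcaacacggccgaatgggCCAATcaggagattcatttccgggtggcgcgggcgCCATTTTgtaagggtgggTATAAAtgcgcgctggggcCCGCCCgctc
Srsf1, chr11:88047123-88047372, plus strand: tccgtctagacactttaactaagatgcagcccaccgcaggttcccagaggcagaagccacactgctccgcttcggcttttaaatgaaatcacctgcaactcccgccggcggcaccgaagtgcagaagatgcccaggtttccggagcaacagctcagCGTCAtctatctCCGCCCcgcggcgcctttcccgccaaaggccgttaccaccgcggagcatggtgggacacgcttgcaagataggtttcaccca
Srsf5, chr12:80945249-80945498, plus strand: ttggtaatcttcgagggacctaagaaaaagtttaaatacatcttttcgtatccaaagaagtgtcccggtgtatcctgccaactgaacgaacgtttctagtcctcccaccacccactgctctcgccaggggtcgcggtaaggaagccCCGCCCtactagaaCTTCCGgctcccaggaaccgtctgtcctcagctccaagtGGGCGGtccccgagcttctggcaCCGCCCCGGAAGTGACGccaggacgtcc
Srsf4, chr4:131873389-131873638, plus strand: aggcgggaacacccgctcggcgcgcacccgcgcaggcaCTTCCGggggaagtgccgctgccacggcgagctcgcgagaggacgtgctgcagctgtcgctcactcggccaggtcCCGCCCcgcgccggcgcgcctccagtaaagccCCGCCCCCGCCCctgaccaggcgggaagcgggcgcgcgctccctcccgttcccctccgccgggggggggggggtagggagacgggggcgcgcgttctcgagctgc

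GC boxes, spelled GGGCGG and bound by Sp1 and its relatives, were found in 9 of the 10 windows, beside 32.7% of all windows. The core of the cAMP response element, TGACG, was found in 6 of the 10 windows, beside 17.8% of all windows. The core bound by ETS factors, CGGAAG, was found in 5 of the 10, beside 13.6%, namely Srsf4, Srsf5, Srsf7, Srsf9 and Srsf11. The CCAAT box was found in Srsf2, Srsf3 and Srsf10, and in 33.8% of all windows. The TATA box core, TATAAA, was found in Srsf2, where it began 29 bases before the start, and in Srsf3, beside 12.4% of all windows. The core bound by YY1, CCATNTT, matched in Srsf2 alone of the 10, beside 12.4% of all windows. The E-box (CANNTG), the motif bound by MyoD and related factors, was found in 6 of the 10 windows, beside 66.2% of all windows, and is not in capitals. In the 10 windows 2 pairs of matches to different motifs overlapped. A match describes these letters only.

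The annotation of the family also had a shared feature. Of the 10 genes, 9 have at least 1 GENCODE M21 transcript classed as subject to nonsense-mediated decay, Srsf10 being the exception, and 8 have a retained-intron transcript. Among 11012 measured protein-coding genes the shares were 28.6% and 60.3%. Srsf2 has 6 annotated transcripts, of which 2 are protein-coding and 2 are of the decay class, and Srsf11 has 19, with 11 that retain an intron. The deposited values are per gene, and which of these transcripts entered them is not given in the sources. The median number of annotated transcripts was 7.5 for the 10 genes against 5 for the measured genes.

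Positions and near copies limit some members. In the table Srsf1 and Srsf3 are placed on scaffolds outside the chromosomes, while GENCODE M21 places them on chromosome 11 (88047373 to 88053755) and chromosome 17 (29032628 to 29043373). The other 8 overlap their GENCODE genes. For Srsf5 and Srsf10 the smallest pair of whole read numbers behind their values implies lengths of 6612 and 13720 bases at the assumed depth. These are beyond the spans of 4996 and 9748 bases in the table, but a whole multiple of that depth would shorten them. For Srsf3 no such pair was found. The intervals of all 10 genes rest on reads estimated from exon length. 12 rows of the table are described as pseudogenes or like genes of SR factors, of which 6 were at 0 in both libraries and 3 were measured. Gm9761, a pseudogene whose description names no single SR gene, was at 14.6 FPKM in both libraries, above Srsf9. Gm10254, described as a pseudogene of arginine/serine-rich splicing factor 10, was at 6.27 FPKM in the control and 10.6 FPKM in the knockout library. That is an older naming, and its number need not be that of Srsf10. Gm12966, described as a pseudogene of Srsf5, was at 1.32 and 1.52 FPKM. How reads were divided between the SR genes and these copies was not tested. Gm12992, which overlaps Srsf4 on the other strand, was at 0.163 FPKM in both libraries.

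Partners of the SR proteins were described with lists that cover their relatives, kinases, splice site factors and downstream pathways. Of 21 SR-like and SR-related genes 20 were found and 19 measured, with 18 above 0, 0 past 2-fold in either direction and a median difference of 0.27. Of all measured genes 73.0% were above 0, 2.68% higher by 2-fold and 0.744% lower. The SR-like splicing activators Tra2a and Tra2b led this list at differences of 0.82 and 0.75, above the 0.51 of Srsf5. Luc7l3, a relative of a yeast U1 component, was lowest at 85.9 FPKM in the knockout library against 89.1 FPKM, and Zranb2, a zinc finger splicing factor, was at 20.6 against 19.9 FPKM.

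All 9 genes of the kinases and the import receptor were above 0, beside 73.0% of all measured genes. Their median was 0.29, with 0 past 2-fold, where 2.68% of all measured genes were higher and 0.744% lower. Clk1 and Clk4, nuclear kinases of SR proteins, had ratios of 1.49 (1.41 to 1.59; 57.3 against 38.4 FPKM) and 1.48 (1.40 to 1.57; 53.3 against 35.9 FPKM). The lowest were 2 of the 3 SRPK kinases: the muscle-enriched Srpk3 was at 25.7 against 25.4 FPKM, a ratio of 1.01 (0.938 to 1.09), and Srpk1 at 6.78 against 6.35 FPKM. The third, Srpk2, was at 15.1 against 12.2 FPKM, a ratio of 1.24 (1.17 to 1.31), and was the median of the list. Relative to the median gene Clk1 and Clk4 were thus above it and Srpk3 and Srpk1 below it.

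All 10 splice site partners lay above the median measured gene at 0.18, with a median of 0.32 and 0 past 2-fold. Of all measured genes 73.0% were above 0, 2.68% higher by 2-fold and 0.744% lower. Among genes at 5 FPKM or more the median gene was at 0.22, and Sf3a1 at 0.20 lay below it. The branch point protein Sf1 was at 57.5 against 41.1 FPKM and the U1 protein gene Snrpc at 34.8 against 25.4 FPKM. The lowest were Sf3a1, of the U2 particle, at 15.8 against 13.6 FPKM, and U2af1, which reads the end of the intron, at 170 against 142 FPKM. The spread of this list was narrower than that of the SR genes, from 0.20 to 0.47 against -0.65 to 0.51.

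Genes of the 7SK particle and of the P-TEFb kinase, which release paused polymerase, had a median of 0.29, with 5 of 7 above 0 and 0 past 2-fold. Over all measured genes 2.68% were higher by 2-fold and 0.744% lower. The share above 0 was 73.0%, so the count above 0 for these 7 was near the background. Ccnt2, a cyclin of P-TEFb, was at 21.1 against 13.9 FPKM and Larp7, which binds 7SK RNA, at 42.4 against 33.1 FPKM. Hexim1, the inhibitor of the kinase in this particle, was at 7.59 against 9.09 FPKM, a ratio of 0.835 (0.755 to 0.922), and Mepce, the capping enzyme of 7SK RNA, at 4.99 against 5.28 FPKM. Export factors, for which SR proteins act as adaptors, had a median of 0.30, with 8 of 9 above 0 and 0 past 2-fold. Thoc2 was at 21.4 against 14.8 FPKM and Ddx39b at 81.8 against 61.3 FPKM, both of the export complex TREX, while Thoc5 was at 6.29 against 5.96 FPKM and Thoc7 at 57.4 against 49.6 FPKM.

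Nonsense-mediated decay genes had a median of 0.33, with all 15 above 0, 1 higher by 2-fold and 0 lower. Over all measured genes 73.0% were above 0, 2.68% higher by 2-fold and 0.744% lower, so a single gene of 15 past the rule is not a result about the list. The 1 gene past the rule was Magohb, a component of the exon junction complex, at 9.24 against 3.57 FPKM, a ratio of 2.59 (2.11 to 3.23), and it no longer passed under the 3 scalings. Its near-identical copy Magoh was at 142 against 103 FPKM, a ratio of 1.38 (1.30 to 1.47), and how reads were divided between these copies was not tested. Upf1, the helicase of the pathway, was lowest at 8.19 against 8.10 FPKM.

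**Figure D5:**
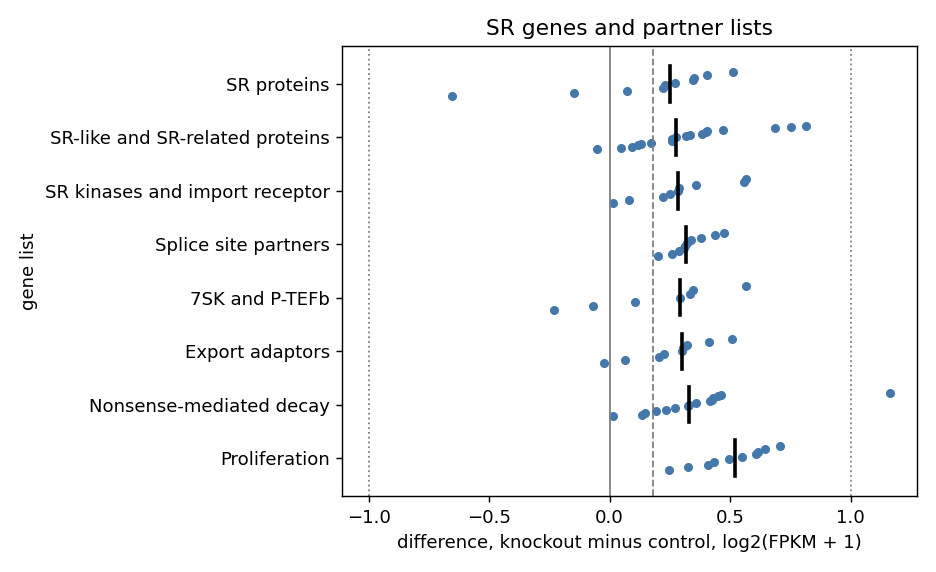
Difference between knockout and control library on the log2(FPKM + 1) scale for each measured gene (points) of the SR genes and the partner lists, with list medians (bars); the dashed line marks the median measured gene at 0.18 and the dotted lines the 2-fold rule. Srsf2 is the lowest point of all lists and Magohb the 1 point past a dotted line.

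Proliferation genes were described as well, and all 10 lay above the median gene, with a median of 0.52 and 0 past 2-fold. Of all measured genes 73.0% were above 0, 2.68% higher by 2-fold and 0.744% lower. Cdk1, which drives entry into mitosis, was at 9.93 against 5.69 FPKM and Aurka, a mitotic kinase, at 10.8 against 6.56 FPKM. The lowest were Mcm2, of the replication helicase, at 6.02 against 4.91 FPKM and Ccna2, cyclin A2, at 19.5 against 15.4 FPKM. This list was higher in its median than the SR genes, and its part in their values was not tested.

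Markers of other cell types differed in both directions. Beside their counts, 73.0% of all measured genes were above 0, 2.68% higher by 2-fold and 0.744% lower. Of 8 adipocyte markers 7 were measured, all above 0 and 6 by 2-fold, with a summed level of 698 against 299 FPKM, from Scd1, stearoyl-CoA desaturase, at 99.97 against 7.30 FPKM to the unmeasured Lep. The 8 erythroid markers summed to 2770 against 1272 FPKM, with 4 higher by 2-fold, from Hbb-bs at 482 against 199 FPKM to Klf1 at 0.697 against 1.42 FPKM. Fibroblast markers had 6 of 6 above 0 and none past 2-fold, from Col1a2 at 1243 against 720 FPKM to Pdgfra at 41.1 against 31.8 FPKM, and summed to 4686 against 2853 FPKM. The 5 endothelial markers summed to 124 against 137 FPKM, from Kdr at 19.4 against 18.4 FPKM to Cldn5 at 11.1 against 16.6 FPKM, and the 5 macrophage markers to 37.2 against 28.2 FPKM, from Lgals3 at 10.2 against 3.39 FPKM to Mrc1 at 13.8 against 14.6 FPKM. No marker of any list was at 0 in either library.

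The 5 mRNA genes with values most like those of Srsf2 in the 2 libraries, by the distance between their log2(FPKM + 1) values, were Traf3ip3, Ampd1, 3425401B19Rik, Ppp1r12b and Gamt. Traf3ip3 was nearest, at a distance of 0.02 with 30.9 FPKM in the control and 19.6 FPKM in the knockout library. Ampd1, the AMP deaminase of skeletal muscle, was at 32.6 and 19.2 FPKM, a distance of 0.07. Likeness over 2 libraries says only that these pairs of values are close.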

How the data were processed

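For each of the 2 libraries the authors deposited 1 FPKM value per gene, and a mapping summary whose read counts give the depth, per the file headers. Bowtie 0.12.2 and mm9 are named in the submitters' processing notes without a role, but table positions are those of GRCm38: 19327 of 19368 mRNA rows found by symbol in GENCODE M21 (99.79%) overlap that gene. How reads were counted, with which annotation and whether by strand, is not given in the sources.

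FPKM values were used as deposited, and 27 rows whose symbols had become dates were left unnamed. Genes that reached 1 FPKM in either library were called measured. A difference was log2((knockout FPKM + 1)/(control FPKM + 1)), which understates low genes, and the rule of size was 2-fold, with no test.

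Intervals are 95% Clopper-Pearson for a ratio, exact Poisson for a level and normal on the log scale for a ratio of ratios. They rest on reads estimated as FPKM times the protein-coding exon length in GENCODE M21 times an assumed depth. That depth was 26659452 and 28060573 reads, the smallest whole numbers in the fixed ratio of genes with equal low reads. The ratio gives relative depth only, and 56528337 and 61356758 reads were mapped. The true depth may be a whole multiple of the assumed one, which would make the intervals narrower. Whole reads were not used, because at the assumed depth the smallest pair of whole read numbers can imply a gene longer than its span. This held for 2196 of 19268 rows (11.4%), to a relative tolerance of 2e-14. A whole multiple of that depth would shorten these lengths, and was not tested. Intervals are approximate and cover counting error only, since PCR copies were not marked.

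The members and the 16 gene lists were chosen with earlier results of these data known. Named genes are the members, genes overlapping them or within 20 kb of Srsf2, the 2 highest and 2 lowest of each partner list at 5 FPKM or more in 1 library, partner genes past the rule, the ends of marker lists, and the 5 mRNA genes nearest to Srsf2. Marker genes past the rule are otherwise only counted. A gene that this rule names is not reported here. The choices varied were the fold, the pseudocount, the filter, 3 scalings and the use of mRNA rows alone. The software was pandas 2.3.3, scipy 1.17.1, matplotlib 3.10.9 and numpy 2.4.6 under Python 3.11.15.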

Additional observations from a re-analysis of the deposited data

How the results depend on the processing

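No paired analysis was possible because there is only 1 library of each genotype, and for the same reason no library could be left out. Each of the 3 scalings divides all knockout to control ratios by 1 common factor, of 1.15 to 1.16. This lowers the differences by construction. The 1.5-fold rule admits smaller differences, also by construction. With that rule 1 SR gene (Srsf2) was lower, and 3 SR-like and SR-related genes and 4 proliferation genes were higher, against 0 for each with the 2-fold rule. Of all measured genes 9.15% were higher and 2.91% lower with the 1.5-fold rule. The median difference of the SR genes, 0.25 as deposited, came to 0.048 with median-of-ratios scaling, to 0.051 with a TMM-like scaling and to 0.037 with scaling by the sum of all but the 50 most abundant genes. Under each of these 3 scalings the count of higher nonsense-mediated decay genes was 0 in place of 1. Of 40 member values under the alternatives, 28 moved beyond their counting interval, all of them under the 3 scalings. Srsf9 was the 1 member whose sign changed. The pseudocount of 0.1 FPKM, the filter at 5 FPKM, no filter and mRNA rows alone left each count of SR genes and of the partner lists within 1.5 times its value.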
